A study of Mus musculus with 7 samples.

Results

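Semaphorins, plexins, neuropilins, netrins with their receptors, and the Slit and Robo genes were followed in RNA of mouse femoral cortical bone. Members were taken by gene symbol alone, as the class 3 to class 7 semaphorins (Sema), the plexins (Plxn), Nrp1 and Nrp2, the netrins (Ntn), the Unc5 genes, Dcc, Neo1, and the Slit and Robo genes, and 48 of the 27179 genes in the files matched. They were 20 semaphorins, 9 plexins, 2 neuropilins, 4 netrins, 6 netrin receptors (4 Unc5 genes with Dcc and Neo1), 3 Slits and 4 Robos.

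The mice were females of 12 weeks on a C57BL/6 background, and both genotypes carried Dmp1Cre, a Cre recombinase driven by a promoter of late osteoblasts and osteocytes. There were 3 libraries labelled Dmp1Cre.EfnB2f/f, in which the floxed ephrin B2 gene is meant to be deleted from those cells, and 4 libraries of Dmp1Cre controls, the study's question being what loss of ephrin B2 does to bone. Marrow was flushed out before RNA extraction, and what was sequenced is whole bone, with its vessels and any marrow left, cells other than those the Cre is driven in. Replicates 1 and 2 labelled Dmp1Cre.EfnB2f/f (called f/f-labelled libraries here) shared a parent cross, as did controls 1 and 2, while f/f-labelled replicate 3 and control 3 came from a common cross and control 4 from a further one.

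These families were first described as cues that steer growing axons and are used widely outside the nervous system. Semaphorins bind plexins, with neuropilins as co-receptors for most secreted class 3 members. Netrins act through Dcc, neogenin (Neo1) and the Unc5 receptors, and Slits through the Robos. In bone, Sema3a from osteoblasts is known to restrain osteoclasts, Sema4d from osteoclasts to restrain osteoblasts through Plxnb1, and Slit3 to act on blood vessels and bone cells.

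Efnb2, the targeted gene, went against the labels, with 17.9, 13.1 and 11.8 CPM (TMM-normalized read counts scaled to library size, in which all levels are given unless RPKM is named) in f/f-labelled replicates 1 to 3 and 8.49, 7.93, 6.44 and 6.36 CPM in controls 1 to 4. The log2 fold change was 0.96 (SE 0.21, adjusted p = 0.511, edgeR), over a gene count in which the floxed part is not seen apart. Every direction given here is therefore that of the labels. By PCR of the targeted region, the study reports Efnb2 lost from sorted osteocytes of f/f mice and kept in other cells. Those mice also carried a GFP reporter, and the libraries here are of whole bone. Library totals were 17245556 to 22075778 counts. Controls 1 and 4 stood apart on the first principal component, which held 56.0% of the variance and did not separate the genotypes. All 9 osteoblast and osteocyte markers were detected, and their summed level was 8420.3 to 13987 CPM in the f/f-labelled libraries and 40809 CPM in control 1, 8254 in control 2, 8724 in control 3 and 19962 in control 4. Col1a1 made up most of these sums (38291 CPM in control 1), and the other 8 markers summed to 1217 to 1410.0 CPM in the f/f-labelled libraries and 2517, 1094, 666 and 1240.0 CPM in controls 1 to 4. Summed erythroid markers did not overlap between the groups (2872 to 4557 CPM in f/f-labelled libraries, 5205 to 11527 CPM in controls), and neither did summed neutrophil markers (12114 to 15219 CPM against 17410 to 20058 CPM), both being lower under the f/f label. Skeletal muscle markers summed to 20351 to 34333 CPM in the f/f-labelled libraries and 9669 to 21826 CPM in the controls. Sums overlapped for markers of B lineage cells, macrophages, osteoclasts, megakaryocytes, adipocytes and Schwann cells. In bulk RNA, fewer cells of a type and less RNA per cell cannot be told apart.

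Letters before the start are shown for 4 of the 8 members whose levels did not overlap between the groups, chosen with their values known as a pair that was lower under the f/f label, Unc5a and Sema4a, and a pair that was higher, Robo2 and Sema6d. Each line holds the 250 bases before a transcript start, on the gene's strand and 5′ to 3′. The start is the one closest to the gene's 5′ end in the set of RefSeq promoters used (GRCm38.p6). The stretches are at chr13:54949161-54949410 (plus strand) for Unc5a, chr3:88461183-88461432 (minus) for Sema4a, chr16:75447294-75447543 (minus) for Robo2 and chr2:124089719-124089968 (plus) for Sema6d. Capitals mark matches to the motifs searched.
Unc5a: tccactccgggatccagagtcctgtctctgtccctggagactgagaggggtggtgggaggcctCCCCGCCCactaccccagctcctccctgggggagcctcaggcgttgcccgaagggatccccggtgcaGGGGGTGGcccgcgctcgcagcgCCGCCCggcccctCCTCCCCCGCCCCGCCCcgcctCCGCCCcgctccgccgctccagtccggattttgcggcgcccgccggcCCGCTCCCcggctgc
Sema4a: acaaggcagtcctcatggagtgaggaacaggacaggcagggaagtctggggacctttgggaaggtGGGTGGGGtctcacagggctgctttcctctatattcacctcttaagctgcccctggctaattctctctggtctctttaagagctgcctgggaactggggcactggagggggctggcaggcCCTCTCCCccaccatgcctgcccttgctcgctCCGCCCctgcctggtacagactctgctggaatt
Robo2: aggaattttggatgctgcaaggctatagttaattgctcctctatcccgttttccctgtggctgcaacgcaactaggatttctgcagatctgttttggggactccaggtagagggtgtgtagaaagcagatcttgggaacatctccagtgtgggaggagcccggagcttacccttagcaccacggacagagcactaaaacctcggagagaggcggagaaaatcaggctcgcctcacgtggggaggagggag
Sema6d: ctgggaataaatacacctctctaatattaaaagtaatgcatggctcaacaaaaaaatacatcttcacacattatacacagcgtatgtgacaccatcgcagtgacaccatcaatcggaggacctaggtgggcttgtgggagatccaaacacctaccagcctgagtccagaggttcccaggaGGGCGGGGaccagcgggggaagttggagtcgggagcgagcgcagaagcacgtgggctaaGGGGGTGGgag
These stretches lie under 0 transcripts of GENCODE M21, although RefSeq's span of the gene reaches over 250 of the bases of Unc5a, 150 of Robo2 and 26 of Sema6d. The stretch of Unc5a is thus not the sequence before the gene's 5′ end, since RefSeq's span of that gene begins at chr13:54945151. The promoter set used held 1 start for Unc5a, 4 for Sema4a, 3 for Robo2 and 2 for Sema6d.

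Motifs of factors active in blood or bone cells or common to promoters were searched on both strands, AGATAA for GATA factors, CCNCNCCC for KLF factors, TGTGGT for RUNX factors and GGGCGG for the GC box, whose letters can overlap those of the KLF motif. The stretch of Unc5a held 25 CpG dinucleotides, 6 KLF matches and 5 GC boxes, and that of Sema4a held 2 CpG dinucleotides, 2 KLF matches and 1 GC box. For Sema6d there were 2 KLF matches and 1 GC box, and for Robo2 there were 0 matches to any of the 4. Among the 39 members with an entry in the table, 34 (87.2%) held a KLF match, 28 (71.8%) a GC box, 4 (10.3%) a RUNX match and 0 a GATA match. Over all 27025 promoters of the same length the shares were 45.6%, 33.0%, 14.2% and 10.2%, and over the 17492 of protein-coding genes 52.1%, 42.7%, 12.4% and 9.10%. The median number of CpG dinucleotides was 16 among members, 6 over all promoters and 10 over those of protein-coding genes. These are matches of letters and not binding sites.

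Most members were detected in bone RNA, and 45 of the 48 passed the filter of at least 0.65 CPM in at least 3 libraries. Sema5b (1 to 7 counts per library), Ntn5 (0 to 5) and Unc5d (2 to 8) did not and were not tested. Per length, the highest mean levels over the 7 libraries were those of the transmembrane semaphorin Sema4b (30.4 RPKM, CPM divided by gene length in kilobases), the co-receptor Nrp2 (29.0 RPKM), the plexin Plxnd1 (26.4 RPKM), Sema4a (25.6 RPKM), Sema4d (23.2 RPKM), Plxnb2 (22.4 RPKM) and Nrp1 (18.2 RPKM). Then came Plxnc1 (14.9 RPKM), the membrane-anchored Sema7a (14.8 RPKM), Slit3 (12.7 RPKM), Sema6d (11.9 RPKM), Plxna1 (8.90 RPKM) and Unc5b (8.87 RPKM). Neighbours in this order were not tested against each other, and the member with the higher mean of a pair was higher in 3 to 6 of the 7 libraries. At the low end of the tested members were Dcc (0.0888 RPKM), the netrin receptor best known from neurons, and Sema3e (0.216 RPKM).

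**Figure D1:**
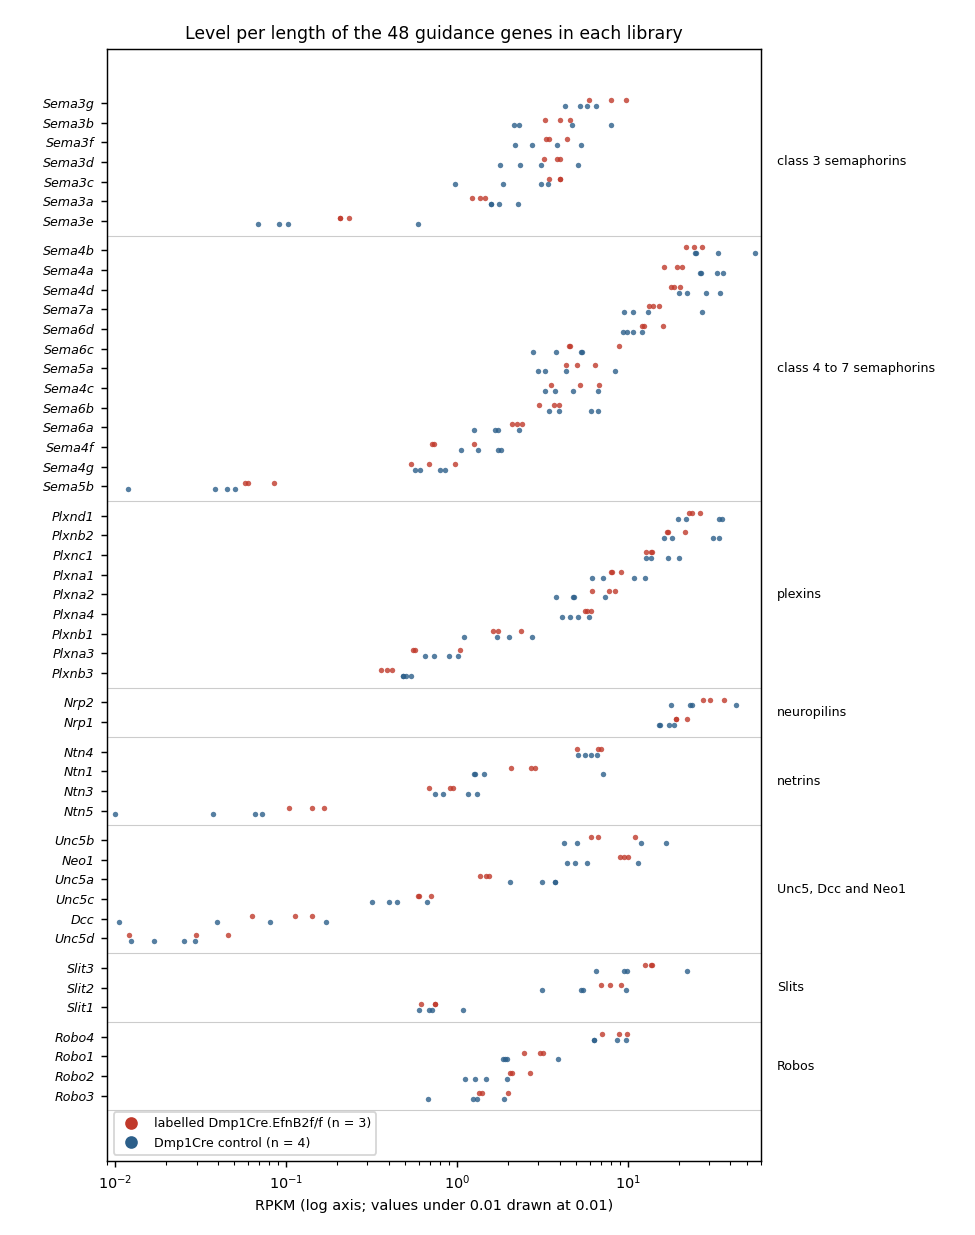
Level per length (RPKM, logarithmic axis) of each of the 48 guidance genes in each of the 7 libraries, grouped by family, with libraries labelled Dmp1Cre.EfnB2f/f in red (n = 3) and Dmp1Cre controls in blue (n = 4). Sema4b, Nrp2 and Plxnd1 have the highest means, and Sema5b, Ntn5 and Unc5d lie at the left edge.

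Shares of the summed level were computed for the semaphorins, the Unc5 genes, the Slits and the Robos. Class 3 semaphorins, the secreted ones, made up 18.9%, 17.4% and 17.1% of the summed semaphorin RPKM in f/f-labelled replicates 1 to 3 and 14.9%, 12.8%, 14.2% and 9.69% in controls 1 to 4. Sema4a, Sema4b and Sema4d together made up 40.4%, 46.9% and 47.4% in the f/f-labelled libraries and 50.1%, 57.0%, 56.1% and 65.3% in the controls. Neither share overlapped between the groups, class 3 being the larger under the f/f label and the class 4 trio the smaller. Both are shares of the same total, so a smaller trio alone makes the class 3 share larger. The summed class 3 RPKM itself overlapped, at 23.3 to 26.3 in the f/f-labelled libraries and 16.7 to 30.25 in the controls, with control 1 the highest. These shares were computed with the levels of the members known and carry no test. Slit3 made up 56.1% to 68.1% of the Slit RPKM and Robo4 51.9% to 68.2% of that of the Robos. Among the Unc5 genes, Unc5b held 50.8% to 82.8% and Unc5a 11.6% to 45%.

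Between the genotypes, 0 of the 45 members tested had an adjusted p under 0.05, against a background of 0% of all 15098 genes tested (edgeR's quasi-likelihood test, Benjamini-Hochberg adjustment over all genes), and adjusted p-values of members ran from 0.511 to 0.9995. At an unadjusted p under 0.05, 2 members were higher under the f/f label, Robo2 and Sema3g (4.44%, background 4.63%), and 3 were lower, Unc5a, Sema4a and Sema4f (6.67%, background 5.03%). Levels did not overlap between the groups for 4 members that were higher (8.89%, background 5.05%), Robo2, Sema6d, Nrp1 and Sema3c, and for 4 that were lower (8.89%, background 6.30%), Unc5a, Sema4a, Sema3a and Plxnb3. The median log2 fold change of members was 0.08, beside 0.01 for all genes tested. There were 25 members above 0 and 20 below, and 51.3% of all genes tested were above 0. The shares at an unadjusted p lie near the background, and those without overlap come to 4 genes each way.

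Other tests on the same counts called more members. DESeq2 called 2 members, Unc5a (adjusted p = 0.0184) and Sema4a (adjusted p = 0.0475), both lower, against a background of 0.477%. The limma pipeline with sample quality weights called 16 (35.6%, background 14.9%), of which Plxna2, Slit3, Ntn1, Sema3g, Robo1, Robo2, Sema6a, Sema3e, Sema3c, Robo4 and Neo1 were higher and Plxnc1, Unc5a, Sema4a, Sema3a and Plxnb3 lower. Ntn1 had a negative log2 fold change in edgeR (-0.13) and a positive one here (0.87). Without the weights the same pipeline called 0. The study's block for day of collection was left out of both limma fits, since the labels name no day.

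**Figure D2:**
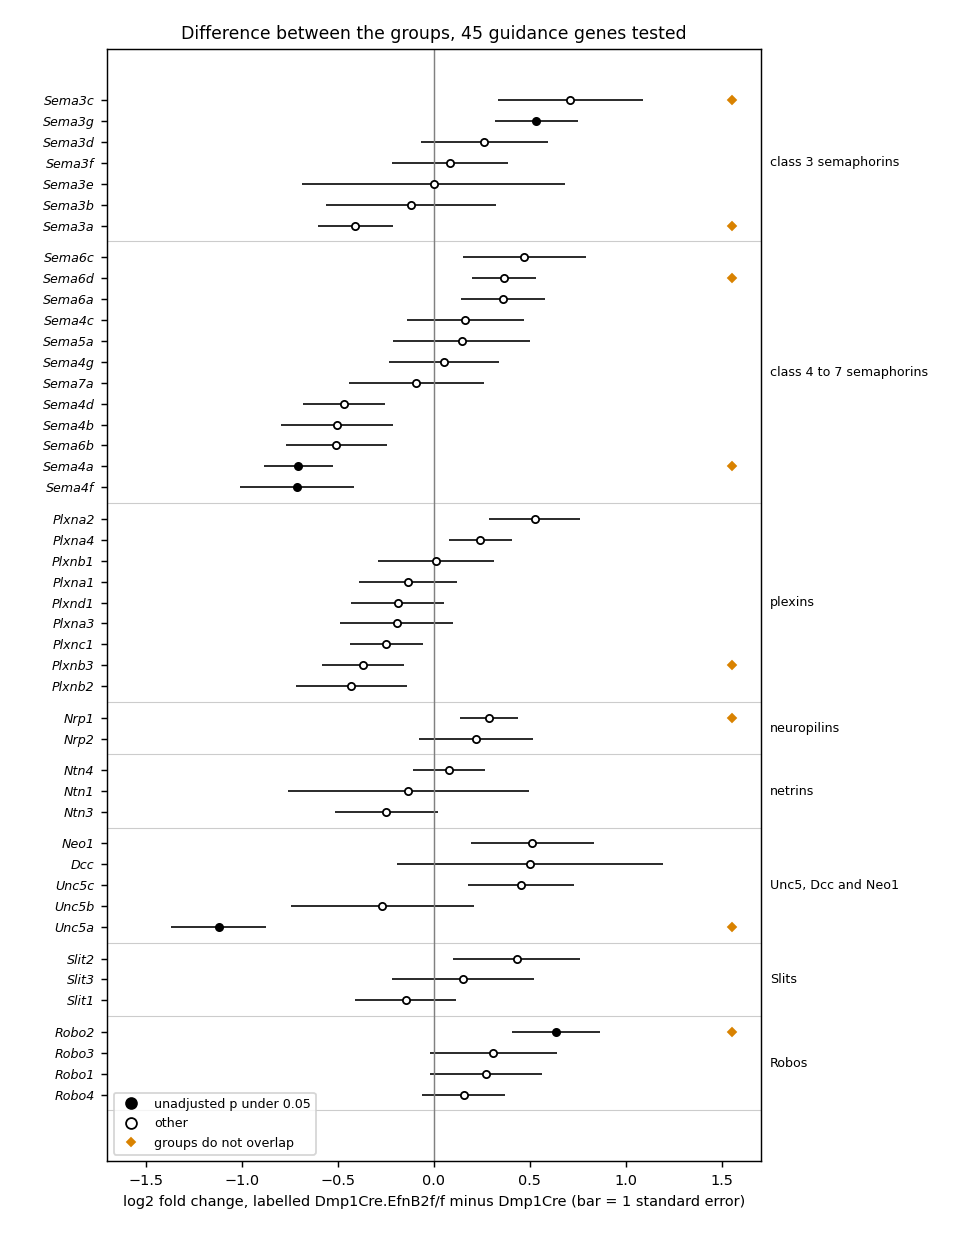
Log2 fold change of the 45 members tested (libraries labelled Dmp1Cre.EfnB2f/f minus Dmp1Cre), grouped by family, with bars of 1 standard error from edgeR. Filled points are the 5 members at an unadjusted p under 0.05, and diamonds mark the 8 whose groups do not overlap, with Unc5a farthest to the left (-1.12) and Sema3c farthest to the right (0.71).

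Among the secreted class 3 semaphorins, 1 of 7 was higher (background 4.63%) and 0 lower (background 5.03%) at an unadjusted p under 0.05. Their log2 fold changes ran from -0.41 to 0.71. Sema3g, known from arterial endothelium and the member of this class with the highest mean RPKM, had 36.1, 29.4 and 22.0 CPM in f/f-labelled replicates 1 to 3 and 24.1, 21.2, 19.4 and 15.9 CPM in controls 1 to 4. F/f-labelled replicate 3 lay below control 1, so the groups overlapped (log2 fold change 0.53, SE 0.22, adjusted p = 0.511 from edgeR; exact permutation p = 0.0857). Sema3c, a ligand for both neuropilins, had 17.2, 20.0 and 20.0 CPM against 15.5, 9.30, 17.0 and 4.84 CPM in the controls. Each f/f-labelled library was above each control, but controls ranged over more than the difference (0.71, SE 0.38, adjusted p = 0.517), and control 4 was the lowest.

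Sema3a had the opposite order. Its levels were 10.7, 8.99 and 9.96 CPM in f/f-labelled replicates 1 to 3 and 11.6, 16.5, 12.9 and 11.5 CPM in controls 1 to 4. Every control was above every f/f-labelled library, with control 2 the highest and only a narrow gap between f/f-labelled replicate 1 and control 4 (-0.41, SE 0.20, adjusted p = 0.515). The other class 3 members overlapped widely. Sema3b ranged from 7.42 to 27.4 CPM, Sema3d from 11.7 to 33.4 CPM and Sema3f from 7.43 to 18.0 CPM over the 7 libraries, each with its highest level in control 1. Sema3e, a ligand that binds Plxnd1 without a neuropilin, had 79 counts in control 1 and 8 to 29 in the other libraries.

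Of the 13 membrane-bound semaphorins of classes 4 to 7, 12 were tested. At an unadjusted p under 0.05, 0 of them were higher (background 4.63%) and 2 lower (background 5.03%). Sema4a, found on immune cells, had 56.2, 67.1 and 71.7 CPM in f/f-labelled replicates 1 to 3 and 115, 93.3, 91.0 and 124 CPM in controls 1 to 4. The lowest control was above the highest f/f-labelled library (-0.71, SE 0.18, p = 0.0036, adjusted p = 0.511; exact permutation p = 0.0286, two-sided and the lowest possible with 3 against 4 libraries). The f/f-labelled libraries also had lower neutrophil and erythroid marker sums, and of 118 members and marker genes the closest to Sema4a over the 7 libraries were Ltf (Pearson r = 0.98), a granule protein of neutrophils, Tspo2 (0.97), made by erythroid cells and named by the study from these libraries, and Ngp (0.96), another neutrophil granule protein. The part of these cells in the level of Sema4a was not tested.

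Sema4f had 3.61, 6.36 and 3.69 CPM in the f/f-labelled libraries and 8.75, 5.30, 6.67 and 9.13 CPM in the controls. The difference was -0.71 on the log2 scale (SE 0.30, adjusted p = 0.511). F/f-labelled replicate 2 lay above control 2, so the groups overlapped. Sema4d, which osteoclasts, lymphocytes and platelets express, had 78.8, 82.3 and 89.2 CPM against 152, 97.2, 87 and 126 CPM. Control 3 lay between the f/f-labelled libraries, and controls 1 and 4 were the highest of all (-0.47, SE 0.21, adjusted p = 0.511). Sema4d varied most closely with Csf1r (r = 0.97), the receptor for macrophage colony-stimulating factor.

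Sema4b, the member with the highest RPKM of all, was highest in control 4. Its levels were 86.8, 96.6 and 107 CPM in the f/f-labelled libraries and 133, 98.2, 99.5 and 219 CPM in the controls (-0.50, SE 0.29, with an adjusted p of 0.526), and without control 4 the difference was -0.19 (adjusted p = 0.862). Adgre1, the macrophage marker F4/80, was closest to it in pattern (r = 0.97). Sema6d, which binds class A plexins, showed the opposite order to Sema4a, with 105, 81.7 and 80.0 CPM against 79.0, 70.4, 61.6 and 64.8 CPM. Control 1 lay just below the lowest f/f-labelled library (0.37, SE 0.17, adjusted p = 0.511). Sema7a, a ligand of both Plxnc1 and integrins, had 50.2, 43.6 and 46.3 CPM against 89.4, 35, 31.2 and 43.3 CPM, so that control 1 alone was far above the others and the group difference was -0.09 (SE 0.35, adjusted p = 0.911). Without control 1 it was 0.35 on the log2 scale (adjusted p = 0.475). Sema4c, Sema4g, Sema5a, Sema6a, Sema6b and Sema6c had log2 fold changes between -0.51 and 0.47 with overlapping groups.

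**Figure D3:**
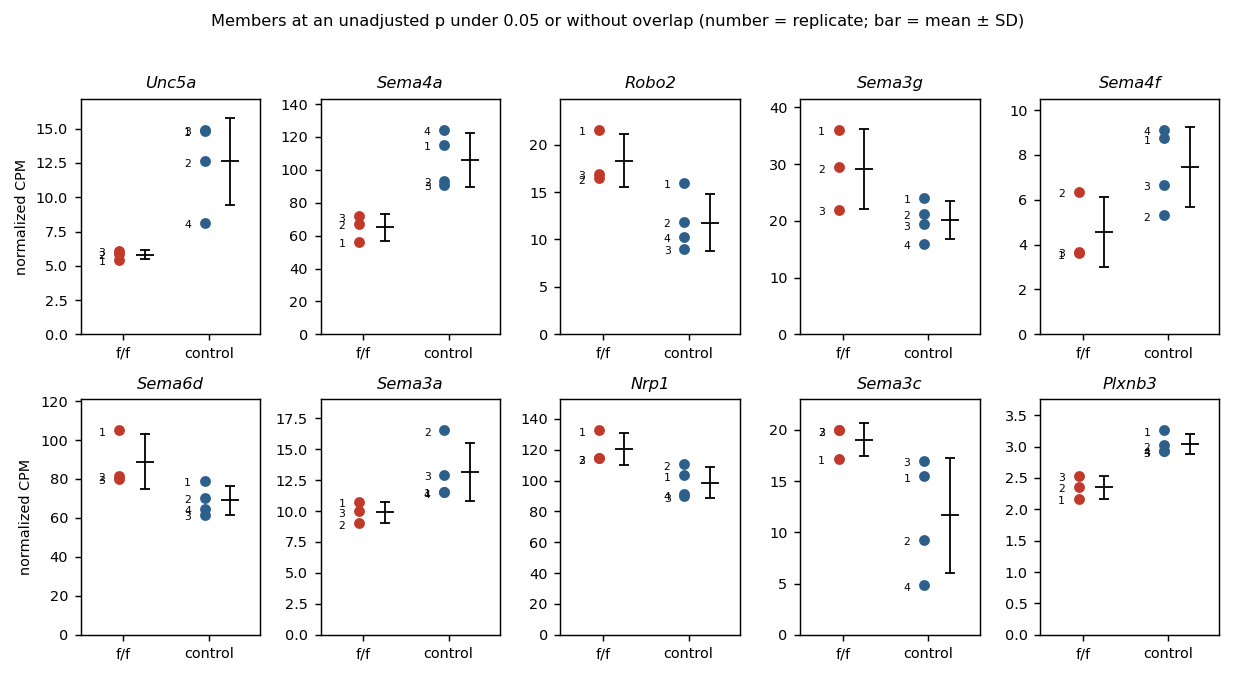
Normalized CPM of the 10 members at an unadjusted p under 0.05 or without overlap between the groups, with each library as a numbered point (red, f/f = labelled Dmp1Cre.EfnB2f/f, n = 3; blue, Dmp1Cre controls, n = 4) and the mean ± SD as a bar, each axis starting at 0. For Unc5a, the f/f-labelled libraries sit between 5.45 and 6.11 CPM, all below the controls, the lowest of which is control 4 at 8.15 CPM.

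Plexins are the receptors for semaphorins, and of these 9 genes 0 had an unadjusted p under 0.05 (background 4.63% higher and 5.03% lower). Plxnd1, the endothelial receptor with the highest RPKM among the plexins, had 164, 159 and 184 CPM in the f/f-labelled libraries and 236, 152, 136 and 246 CPM in the controls. Controls 1 and 4 lay above and controls 2 and 3 below every f/f-labelled library (-0.19, SE 0.24, adjusted p = 0.730). Plxna1, which pairs with neuropilins and with Sema6d, followed the same order with 73.5, 72.1 and 82.6 CPM against 98.8, 64.6, 56.1 and 114 CPM (-0.13, SE 0.26, adjusted p = 0.816), and its pattern was the closest to that of Plxnd1 (r = 0.98). Exons of Plxna1 share 10.7% of their bases with Gm26811 on the opposite strand, and the strand setting of the counting was not stated.

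Plxnb1, the receptor for Sema4d, had 15.0, 14.0 and 20.6 CPM against 23.8, 14.7, 9.54 and 17.4 CPM, with controls on either side of the f/f-labelled libraries (0.01, SE 0.30, adjusted p = 0.989). Its level moved most closely with Alpl (r = 0.98), tissue-nonspecific alkaline phosphatase of osteoblasts. Plxnc1, the receptor for Sema7a, had 90.2, 98.0 and 96.7 CPM against 90.4, 142, 122 and 96.8 CPM, so that controls 2 and 3 alone stood above the rest (-0.25, SE 0.19, adjusted p = 0.587). Plxnb3 was low, at 39 to 48 counts in the f/f-labelled libraries and 50 to 63 in the controls. In CPM its groups were 2.17, 2.36 and 2.53 against 3.26, 3.02, 2.93 and 2.93 and did not overlap (-0.37, SE 0.21, adjusted p = 0.527; exact permutation p = 0.0286). Plxna2, another partner of neuropilins, was 67.9 to 93.7 CPM in the f/f-labelled libraries and 42.1 to 81.0 CPM in the controls, with the largest log2 fold change among the plexins (0.52, SE 0.24, adjusted p = 0.511). Plxnb2, a further class B plexin, was 112 to 143 CPM under the f/f label and 107 to 226 CPM in controls, while Plxna4 ranged from 52.1 to 77.4 CPM and Plxna3 from 3.84 to 7.22 CPM over the 7 libraries.

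Both neuropilins were abundant. Nrp1, the co-receptor for Sema3a and for vascular endothelial growth factor, had 133, 114 and 114 CPM in f/f-labelled replicates 1 to 3 and 103, 110, 89.9 and 91.1 CPM in controls 1 to 4. The highest control, control 2, was a little below the lowest f/f-labelled library (0.29, SE 0.15, adjusted p = 0.517; exact permutation p = 0.0571). Among the 118 genes its nearest in pattern was Emcn (r = 0.97), the endothelial sialomucin endomucin. The summed endothelial markers were 544 to 657 CPM under the f/f label and 415 to 561 CPM in the controls. Of these 8 markers, 3 were higher at an unadjusted p under 0.05 (background 4.63%). The part of endothelial cells in the level of Nrp1 was not tested. Nrp2, which prefers Sema3f, had 297, 224 and 248 CPM against 352, 188, 147 and 193 CPM, and control 1 exceeded every f/f-labelled library while the other controls lay below them (0.22, SE 0.30, adjusted p = 0.746, and 0.54 without control 1, adjusted p = 0.412). Mepe, an osteocyte gene, was nearest to it (r = 0.97).

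Ntn1, the best known netrin, differed most between control 1 and the rest. It had 16.6, 15.6 and 11.9 CPM in the f/f-labelled libraries, 41.4 CPM in control 1, and 7.36, 7.26 and 8.26 CPM in controls 2 to 4. Each f/f-labelled library was thus above 3 of the controls and far below the fourth, with a log2 fold change of -0.13 (SE 0.63, adjusted p = 0.931). Without control 1 the fold change was 0.94 (SE 0.20, adjusted p = 0.369). Ntn4, a netrin of basement membranes and the netrin with the highest mean RPKM, had 16.8, 16.1 and 12.1 CPM against 16.0, 13.6, 14.8 and 12.4 CPM, with overlapping groups (0.08, SE 0.19, adjusted p = 0.857). Ntn3 ranged from 3.39 to 6.41 CPM.

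Unc5a gave the lowest p of all members. This netrin receptor, which the study names (Entrez gene 107448, chr13:54945151-55006018), had 98, 107 and 116 counts in the f/f-labelled libraries and 287, 221, 255 and 150 counts in controls 1 to 4. The normalized levels were 5.45, 5.87 and 6.11 CPM against 14.9, 12.6, 14.9 and 8.15 CPM. The f/f-labelled libraries were close together and below each control, with control 4 nearest to them and with controls 1 to 3 at more than 12 CPM (-1.12, SE 0.25, p = 0.00155, adjusted p = 0.511; exact permutation p = 0.0571). In the shared parent cross, the f/f-labelled library was lower than control 3 by 1.29 on the log2 scale, as 1 library of each genotype. The same difference within that cross was smaller than between the groups for Sema4a (-0.34), Sema3c (0.23), Sema3g (0.18) and Plxnb3 (-0.21), about the same for Sema3a (-0.38), Sema6d (0.38) and Nrp1 (0.35), and larger for Sema4f (-0.86) and Robo2 (0.91). Control 3, on which these differences within the cross rest, held the lowest level of 19 of the 45 members tested, and the highest of Unc5a. The group difference of Unc5a changed little in size when control 1 was left out (-1.03, adjusted p = 0.369 from edgeR). The study lists Unc5a among its top differentially expressed genes, as down-regulated and associated with autophagy. The study's test was limma with sample quality weights and a block for day of collection. With weights but without that block, limma here gave -1.29 for Unc5a (adjusted p = 0.00292), whereas the edgeR test did not call it. Exons of Unc5a share 0.816% of their bases with Hk3 on the opposite strand. Plxnb3 was nearest to Unc5a in pattern (r = 0.90), followed by the neutrophil gene S100a8 (r = 0.75) and the erythroid gene Tspo2 (r = 0.75). Summed neutrophil and erythroid markers were lower under the f/f label. The part of these cells in the level of Unc5a was not tested.

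The other netrin receptors did not share this order. Unc5b, known as a receptor of endothelial cells, had 39.6, 35.8 and 64.5 CPM against 99.1, 29.8, 24.9 and 70.5 CPM, with controls 1 and 4 above and controls 2 and 3 below (-0.27, SE 0.48, adjusted p = 0.803). It varied most closely with Sp7 (r = 0.97), the osteoblast transcription factor osterix. Neo1, a receptor for netrins and repulsive guidance molecules, had 74.0, 66.5 and 70.5 CPM against 85.6, 42.8, 36.2 and 32.7 CPM. Control 1 was again the highest, and the other controls were all below the f/f-labelled libraries (0.51, SE 0.32, adjusted p = 0.536, and 0.92 without control 1, adjusted p = 0.369). Unc5c was 5.48 to 6.54 CPM under the f/f label and 2.99 to 6.27 CPM in controls, and Dcc had 2 to 31 counts per library.

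Slits are secreted ligands of the Robos. Slit3, the most abundant of them, had 69.4, 68.6 and 63.4 CPM in f/f-labelled replicates 1 to 3 and 112, 47.6, 32.6 and 49.8 CPM in controls 1 to 4 (0.15, SE 0.37, adjusted p = 0.858). With control 1 left out, the f/f-labelled libraries were above the remaining controls and the log2 fold change was 0.63 (adjusted p = 0.389). Slit2 followed the same order, with 55.5 to 73.4 CPM against 77.8 CPM in control 1 and 25.4 to 43.5 CPM in the other controls. Slit1 stayed between 3.16 and 5.71 CPM.

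All 4 Robos had positive log2 fold changes, from 0.15 to 0.64, beside 51.3% positive over all genes tested. At an unadjusted p under 0.05, 1 of them was higher (background 4.63%). Robo2 (Entrez gene 268902, chr16:73891976-75447443) had 388, 300 and 321 counts in the f/f-labelled libraries and 308, 208, 154 and 189 in the controls. In CPM these were 21.6, 16.5 and 16.9 against 16.0, 11.9, 9.02 and 10.3. Control 1 lay just below f/f-labelled replicate 2, and the other controls were well below (0.64, SE 0.23, p = 0.0226, adjusted p = 0.511; exact permutation p = 0.0571). Sema6d was nearest to it (r = 0.97), followed by Ebf1 (r = 0.95), a transcription factor of B lineage and stromal cells. Robo1, a receptor for Slits, had 18.8, 24.2 and 23.4 CPM against 29.8, 14.2, 14.5 and 14.9 CPM (0.27, SE 0.29, adjusted p = 0.682, and 0.61 without control 1, adjusted p = 0.369), with control 1 the highest and the other controls the lowest. Robo4, the endothelial Robo, had 36.9, 32.8 and 26.2 CPM against 32.2, 23.3, 23.4 and 36.0 CPM, with mixed groups (0.15, SE 0.21, adjusted p = 0.750). The adipocyte gene Adipoq was nearest to Robo4 in pattern (r = 0.96), followed by the endothelial genes Cdh5 (r = 0.89) and Tie1 (r = 0.86). Robo3 ranged from 3.21 to 9.45 CPM.

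Many members had their extreme levels in the same controls. Control 1 held the highest level of 17 of the 45 members (37.8%, background 14.0%), and control 3 the lowest level of 19 (42.2%, background 13.4%). For 3 members, Ntn1, Sema3e and Robo1, control 1 stood above the other 3 controls by a gap test for single outliers (6.67%, background 1.83%). F/f-labelled replicate 1 was highest for 11 (background 18.4%) and control 4 for 8 (background 32.5%). Marker sums were also highest in control 1 for osteoblasts and osteocytes, with and without Col1a1, for osteoclasts (2625 CPM, against 755 to 1306 in the other libraries) and for adipocytes (510 CPM, against 150 to 433). Cfd made up 285 CPM of the adipocyte sum in control 1. Cfd and Plin1 were highest in control 1, but Adipoq, Fabp4 and Lep were highest in other libraries. The part of osteoblasts, osteocytes, osteoclasts and adipocytes in the levels of the members was not tested.

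When control 1 was left out, 14 members were higher (31.1%, background 7.27%) and 2 lower (4.44%, background 4.02%) at an unadjusted p under 0.05, with 0 adjusted p-values under 0.05 and the lowest at 0.369. The 14 were Neo1, Ntn1, Sema3e, Robo2, Plxna2, Robo1, Unc5c, Slit2, Slit3, Sema3g, Sema3d, Nrp2, Sema5a and Sema6d, and the 2 were Unc5a and Sema4a. Groups then did not overlap for 17 members that were higher (37.8%, background 10.5%) and 4 that were lower (8.89%, background 9.11%), and the median log2 fold change of members was 0.31, beside 0.01 for all genes. Leaving out a control that held the highest level of 17 members raises their fold changes by construction. Without control 3, the lowest library for 19 members, the lean went the other way. There 1 member was higher and 5 lower at an unadjusted p under 0.05 from edgeR (15.8% of all genes, both directions together), and the median was -0.054. What sets control 1 apart from the other controls was not tested.

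**Figure D4:**
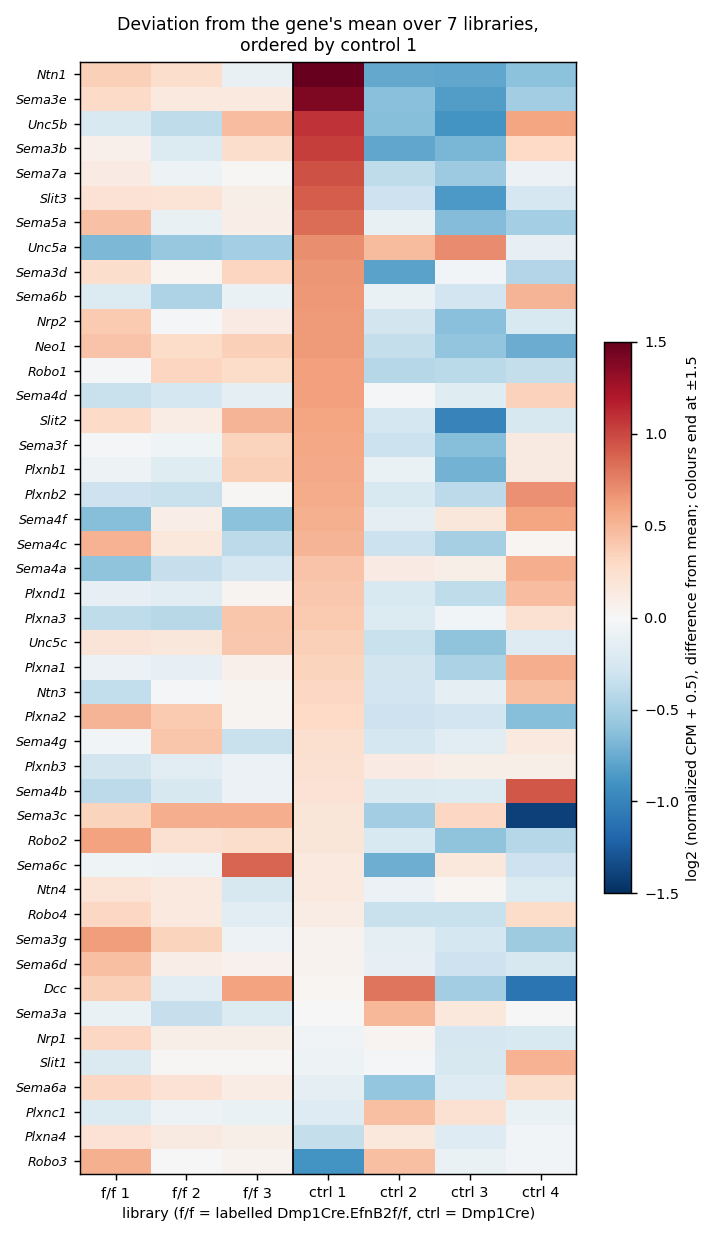
Deviation of each tested member (rows) in each library (columns) from its own mean over the 7 libraries, as a difference in log2 (normalized CPM + 0.5), ordered by control 1 (red above, blue below, colours ending at ±1.5; f/f = labelled Dmp1Cre.EfnB2f/f, ctrl = Dmp1Cre). Control 1 is the highest library for 17 members and control 3 the lowest for 19.

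The intracellular partners and further ligands and co-receptors of these pathways were listed as 30 genes, of which 27 were tested and Crmp1, Dpysl5 and Timd2 were not. At an unadjusted p under 0.05, 0 were higher (background 4.63%) and 0 lower (background 5.03%). Of the 27 log2 fold changes 19 were positive, beside 51.3% over all genes tested. Their median was 0.25, beside 0.01 for all genes tested. The lowest p belonged to Dscam, a netrin co-receptor (0.0646, log2 fold change 1.06, SE 0.50, adjusted p = 0.513 from edgeR), at 0.207 to 1.32 CPM, and the next to Tyrobp, the adaptor through which Plxna1 signals in osteoclasts (-0.38, SE 0.18, adjusted p = 0.517), at 132 to 231 CPM. The most abundant per length after Tyrobp was Itgb1, the integrin chain with which Sema7a interacts (72.6 RPKM).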

How the data were processed

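RNA of 7 femora was sequenced as TruSeq libraries (bcl2fastq 2.17.1.14 and featureCounts in the submitters' processing notes). The authors mapped reads to mm10 with Rsubread and deposited raw counts for 27179 Entrez genes. The aligner's version and the strand setting are not given in the sources used here. Library totals of 17245556 to 22075778 limit precision for members under about 1 CPM. A filter of 0.65 CPM, reached in 3 or more libraries, kept 16302 genes, of which 1204 were left out by class (immunoglobulin, unnamed, predicted, pseudogene, ribosomal RNA, Y chromosome and Xist), leaving 15098. These were tested with edgeR 4.0.16 (TMM, robust quasi-likelihood, genotype only, Benjamini-Hochberg adjustment) in R 4.3.3. DESeq2 1.42.0 and limma 3.58.1 (robust trend on quantile-normalized log2 CPM, prior count 2, with and without quality weights) were alternatives. The study's methods give 2 days of collection, with 2 Dmp1Cre.EfnB2f/f and 3 control samples on day 1 and 1 of each genotype on day 2. The labels do not say which samples these were, and the day was not fitted. RPKM used the deposited gene lengths. Exact permutation tests were two-sided, over all 35 splits, on log2 (CPM + 0.5). Standard errors are those of the log2 fold change. Code was tested on simulated data.

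Members, gene lists and the rule for naming genes were chosen with earlier results of these data known. Values per library are given for members at an unadjusted p under 0.05, those without overlap, the highest of each family by RPKM, members with a textbook role in bone, and Unc5a, which the study names; other members are given by ranges, chosen after their values were seen where singled out. Patterns were compared by Pearson correlation over 7 libraries among 118 members and markers, as a description over libraries that share genotype and depth. The labels do not state outright that each replicate is a separate mouse, although replicates of different parent crosses must be. The p-values measure the spread between these samples, of which the part within a cross may be technical. Every pair of replicates differed by more than sampling noise (chi-square per degree of freedom 31.2 to 204). Promoters came from a set of RefSeq starts in which 39 of 48 members had an entry, and overlapping exons from GENCODE M21. The deposited table of the whole series held the same counts, with 26 altered symbols, and the files of single libraries were used.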

Additional observations from a re-analysis of the deposited data

Results flagged for a closer look

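For 3 of the 45 members tested, 1 control lay far from the other 3, by a gap to the nearest control that, as a share of the controls' whole range, passed Dixon's critical value for 4 samples. The gap was 0.971 of the range for Ntn1, 0.956 for Robo1 and 0.934 for Sema3e, and in each of them control 1 was the high library. Chance flags about 1 in 20 groups, or about 2.25 of these 45. Control 1 also had the highest marker sums for osteoblasts and osteocytes (40809 CPM, of which Col1a1 made up 38291). The same held for osteoclasts (2625 CPM) and adipocytes (510 CPM, of which Cfd made up 285). The part of these cells in the gaps was not tested.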

How the results depend on the processing

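The count of members past an adjusted p of 0.05 was 0 with edgeR, 2 with DESeq2 and 16 in the limma pipeline with quality weights, and 0 under the other alternatives. At an unadjusted p under 0.05 it was 5 with edgeR (9.66% of all genes), 23 with limma and weights (32.9%), 8 with limma without weights (10.6%), 8 with library size only (9.37%) and 3 in a fit blocked by parent cross (2.04%), which rests on 1 library of each genotype. Leaving out single libraries gave 2 (without f/f-labelled replicate 1, 2.87% of all genes) to 16 (without control 1, 11.3%). Members without overlap numbered 8 with edgeR (11.3% of all genes), 5 with limma with or without weights (11.4%), and 8 to 21 without single libraries, with 14 without f/f-labelled replicate 3 (29.9%) and 21 without control 1 (19.6%). The median log2 fold change was 0.08, 0.37 in the fit blocked by parent cross, and -0.054 (without control 3) to 0.31 (without control 1) without single libraries. The blocked fit sets f/f-labelled replicate 3 against control 3, the lowest library for 19 members. Leaving out controls 1 and 4 together, chosen after seeing the data, gave 24 members at an unadjusted p under 0.05 (17.5% of all genes), 29 without overlap (37.6%) and a median of 0.45.

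Replicate numbers did not pair the samples, the correlation of deviations being -0.15, 0.07 and -0.44. Over the other pairs it ran from -0.52 (f/f-labelled replicate 1 with control 4) to 0.51 (f/f-labelled replicate 3 with control 4). With the number as a replicate block, 3 members had an unadjusted p under 0.05 (3.82% of all genes), 0 an adjusted p under 0.05, and the median was 0.20. Among named members the block turned Sema7a to 0.020, Plxna1 to 0.10, Ntn1 to 0.16 and Unc5b to 0.11.

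Of 425 values of the 25 named members under 17 alternatives, 374 kept direction and side of the threshold, 15 passed the threshold and 37 changed sign, Ntn1 with limma and weights doing both, while 15 members never changed sign. Blocking by parent cross gave log2 fold changes of 0.11 for Sema4b, 0.036 for Sema4d, 0.57 for Sema7a, 0.56 for Plxna1, 0.43 for Plxnd1, 0.71 for Ntn1, -0.29 for Ntn4 and 1.37 for Unc5b. With limma and weights it was 0.31 for Sema7a, 0.19 for Plxna1, 0.14 for Plxnd1, 0.87 for Ntn1 and 0.28 for Unc5b, and without weights 0.022 for Sema7a, -0.013 for Plxnb1, 0.21 for Ntn1 and -0.0080 for Ntn4. DESeq2 gave -0.011 for Plxnb1, and library size only 0.0042 for Sema7a. Without controls 1 and 4 it was 0.50 for Sema7a, 0.34 for Plxna1, 0.23 for Plxnd1, 1.01 for Ntn1 and 0.77 for Unc5b. Without single libraries the values ran from -0.26 to 0.36 for Sema7a, -0.28 to 0.054 for Plxna1, -0.18 to 0.25 for Plxnb1, -0.37 to 0.94 for Ntn1, -0.010 to 0.21 for Ntn4, -0.57 to 0.16 for Unc5b and -0.054 to 0.63 for Slit3. The causes of these changes were not tested.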
